A study of Mus musculus with 116 samples.

Results

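Interferon-stimulated genes are genes whose transcription rises when a cell responds to interferon. A list of 47 of them was followed through single-cell and few-cell RNA libraries of 2 mouse cell lines. The members are the genes named in a list, taken by symbol, and the rule has no threshold on a measured value. The list was chosen with earlier results of these data known. Of the 47, 45 were found by symbol among the 40202 genes of the count files. Mx1 and Mx2 were not found by symbol and were not analysed here.

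Type I interferon binds a cell-surface receptor whose attached kinases phosphorylate transcription factors, STAT2 among them. With IRF9 these form a complex that binds a promoter sequence called the interferon-stimulated response element (ISRE), whereas the response to interferon gamma runs through the gamma-activated sequence (GAS). The induced proteins detect, degrade or trap viral nucleic acid and proteins, tag proteins with ISG15, or feed back on the pathway, and many cultured cells hold a low level of them without any added interferon.

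SVEC is labelled as a mouse endothelial cell line, the cell type that lines vessels. The other line, C10, is labelled as alveolar type II epithelium, the surfactant-making layer of the lung. Both lines were grown under standard culture and the labels give the treatment as none. All 5 groups of libraries came from nanoSPLITS, which splits a nanodroplet holding the lysate of 1 or a few cells between RNA and protein measurement. There were 48 SVEC single cells, 48 C10 single cells, and a separate C10 input series of 8 libraries of 1 cell, 6 of 3 cells and 6 of 10 cells. The labels name no culture, clone or preparation date, so the cells of a line count as 1 sample, no p-value was computed between the lines, and line and preparation cannot be told apart.

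Values are read counts scaled to 1000000 counts per library (CPM). SVEC libraries held 5122 to 2831907 counts (median 434945) and the 46 C10 single cells kept held 83188 to 5911755 (median 1881704), and 2 C10 libraries of under 1000 counts were left out. Input-series totals ran from 430798 to 15385625. Detection of their markers did not bear out the labelled cell types. Of 12 endothelial genes, none was read in 50% of the libraries of SVEC or of C10. Over all genes, 7.61% in SVEC and 14.4% in C10 reached that share. Kdr, Tie1, Vwf, Emcn, Esam and Cldn5 had no read in the single cells of either line. With all reads of a line pooled, Flt1 had 27.5 CPM in SVEC (8 libraries) and 0.594 CPM in C10 (13 libraries). Tek went the other way, at 0.103 and 0.564 CPM. Of 11 alveolar and epithelial genes only Cdh1 reached 50%, in C10 (24 of 46 libraries, beside 1 of 48 in SVEC). No surfactant gene of the list (Sftpa1, Sftpb, Sftpc, Sftpd) was read in single cells. Of 6 fibroblast genes, Col1a1, Col3a1 and Dcn reached 50% in both lines. Col1a2 (10 SVEC and 6 C10 libraries) and Pdgfra (10 and 9) reached it in neither, and Thy1 had no read. The lines are therefore called by their names below.

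The interferon-stimulated genes took a larger share of the SVEC counts than of the C10 counts. Summed over the line, the 45 genes held 238901 reads in SVEC, which was 0.823% of all counts (95% exact Clopper-Pearson interval 0.820% to 0.827%) or 8233 CPM. In C10 single cells they held 144232 reads, 0.145% (0.144% to 0.146%) or 1452 CPM, so the SVEC level was 5.67-fold higher (log2 difference 2.50). Both intervals cover counting error only, not the spread between cells or cultures. The C10 input series lay near the C10 single cells, at 1314 CPM in 1-cell, 1207 CPM in 3-cell and 1366 CPM in 10-cell libraries. A CPM value is relative to all RNA read, and in pools of 3 or 10 cells a few cells with much RNA and many cells with little cannot be told apart.

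Library by library, the 2 lines barely overlapped in the summed level. The SVEC libraries ran from 1251 through a median of 6944 to 21393 CPM, and the C10 single cells from 847 through 1259 to 2963 CPM. All but 1 of the 48 SVEC libraries lay above the highest C10 library. The exception, SVEC replicate 24 with 95959 counts, had reads of only 2 members, Trim30a (117 reads) and Irf1 (3 reads). Its profile over all genes correlated with the mean of the other SVEC libraries at r = 0.363 and with the C10 mean at r = 0.338. Without it the ratio of the pooled levels was 5.69. Without Ifitm3, the member with the most reads in either line, 45 of 48 SVEC libraries lay above every C10 library, and replicates 7, 12 and 24 did not.

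**Figure D1:**
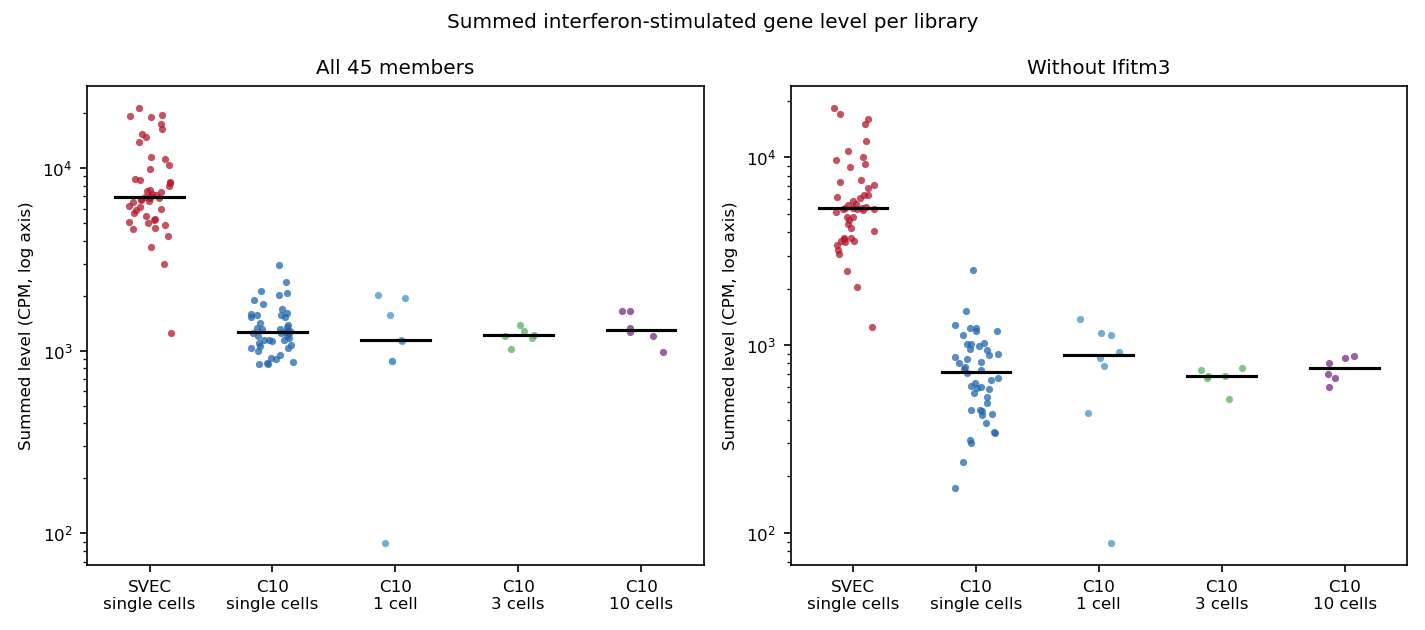
Summed level of the 45 interferon-stimulated genes in each library (points, CPM on a log axis) by group, with the group median as a bar, for all members (left) and without Ifitm3 (right). The SVEC median of 6944 CPM stands above the 4 C10 groups, whose medians lie between 1140 and 1301 CPM, and 1 SVEC library at 1251 CPM and 1 C10 1-cell library at 88.2 CPM stand low.

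Gene by gene, the difference ran through nearly the whole list. A member was compared where SVEC or C10 had reads of it in 25% or more of its libraries, which 35 members met, 15 of them through SVEC only and 1 through C10 only. Of these, 33 were at least 2-fold higher in SVEC by pooled CPM, the reads of a line summed and divided by its summed totals. The same rule called 17.9% of the 9303 genes that passed the filter. None of the 35 members was at least 2-fold higher in C10, where the rule called 19% of genes. At 4-fold, 26 members were higher in SVEC, against 6.08% of all genes, and 0 were higher in C10, against 7.4%. The median log2 ratio was 2.88 over the 35 members and 0.0028 over all genes that passed. The members that passed through SVEC alone were let in by their detection there, which favours a higher level in SVEC. These counts therefore describe the list and are not a test. When edgeR's TMM factors replaced library totals, the median of all genes moved to -0.33 and 32 members were called. No single member separated the lines without overlap, and neither did any of the 9303 genes (0%). The lowest value over the SVEC libraries was 0 CPM for every member but Trim30a (0.528 CPM).

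Leaving out any 1 library kept 31 of the 33 calls. Irgm1 (2.06-fold) fell under 2-fold without any of 11 single libraries, as low as 1.85 without SVEC replicate 13, and stood at 1.63 with TMM factors. Parp14 (3.53-fold) fell to 1.73 without SVEC replicate 5 and rose to 6.57 without C10 replicate 8.

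**Figure D2:**
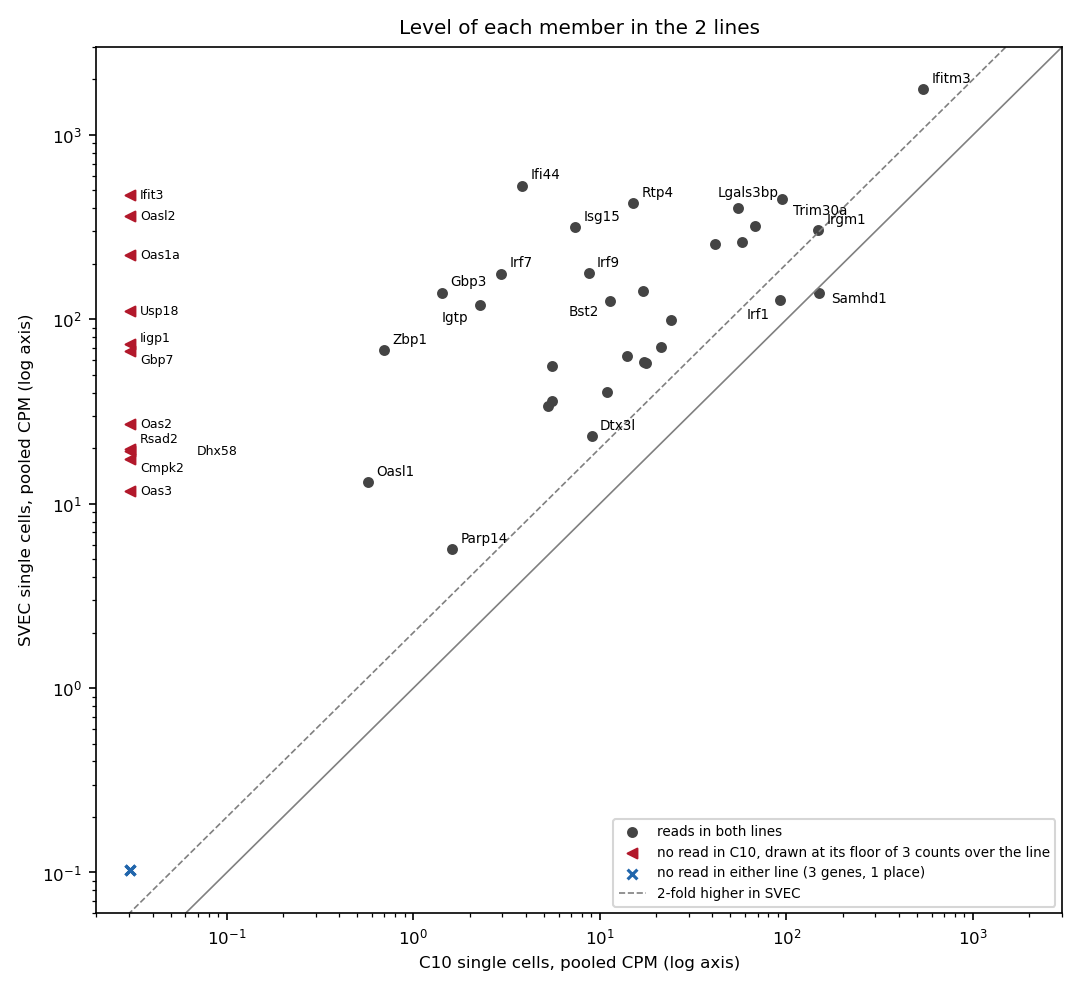
Pooled CPM of each member in C10 (x axis) and SVEC (y axis) single cells, both on log axes, with the line of equality and a dashed line at 2-fold. Red triangles are the 11 members with no read in the 46 C10 single cells, drawn at a floor of 3 counts over the line, and Samhd1 lies below the line of equality.

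The 11 members that were read in SVEC without a single read in the 46 C10 single cells were Ifit3, Oasl2, Oas1a, Usp18, Iigp1, Gbp7, Oas2, Rsad2, Dhx58, Cmpk2 and Oas3. For them a fold is a lower bound, taken against 3 counts over all C10 single cells, or 0.0302 CPM. For each of them, 0 of 46 libraries allows a share of libraries with reads of up to 7.71% (exact Clopper-Pearson). This bound takes the cells as independent draws from 1 sample and does not cover other cultures. Usp18, Iigp1, Rsad2 and Cmpk2 were also without a read in the 20 libraries of the input series, 66 C10 libraries in all. In SVEC, 47 of 48 libraries held reads of at least 1 of the 11, with a median of 4 and a highest of 10. Among members read in at least 25% of SVEC libraries, 7 of 34 had no C10 read, and 0.528% of the 6631 genes read as often in SVEC had none. These counts have no molecular identifiers behind them, so copies made by PCR count as reads. Floors and intervals on read counts cover counting error only.

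**Figure D3:**
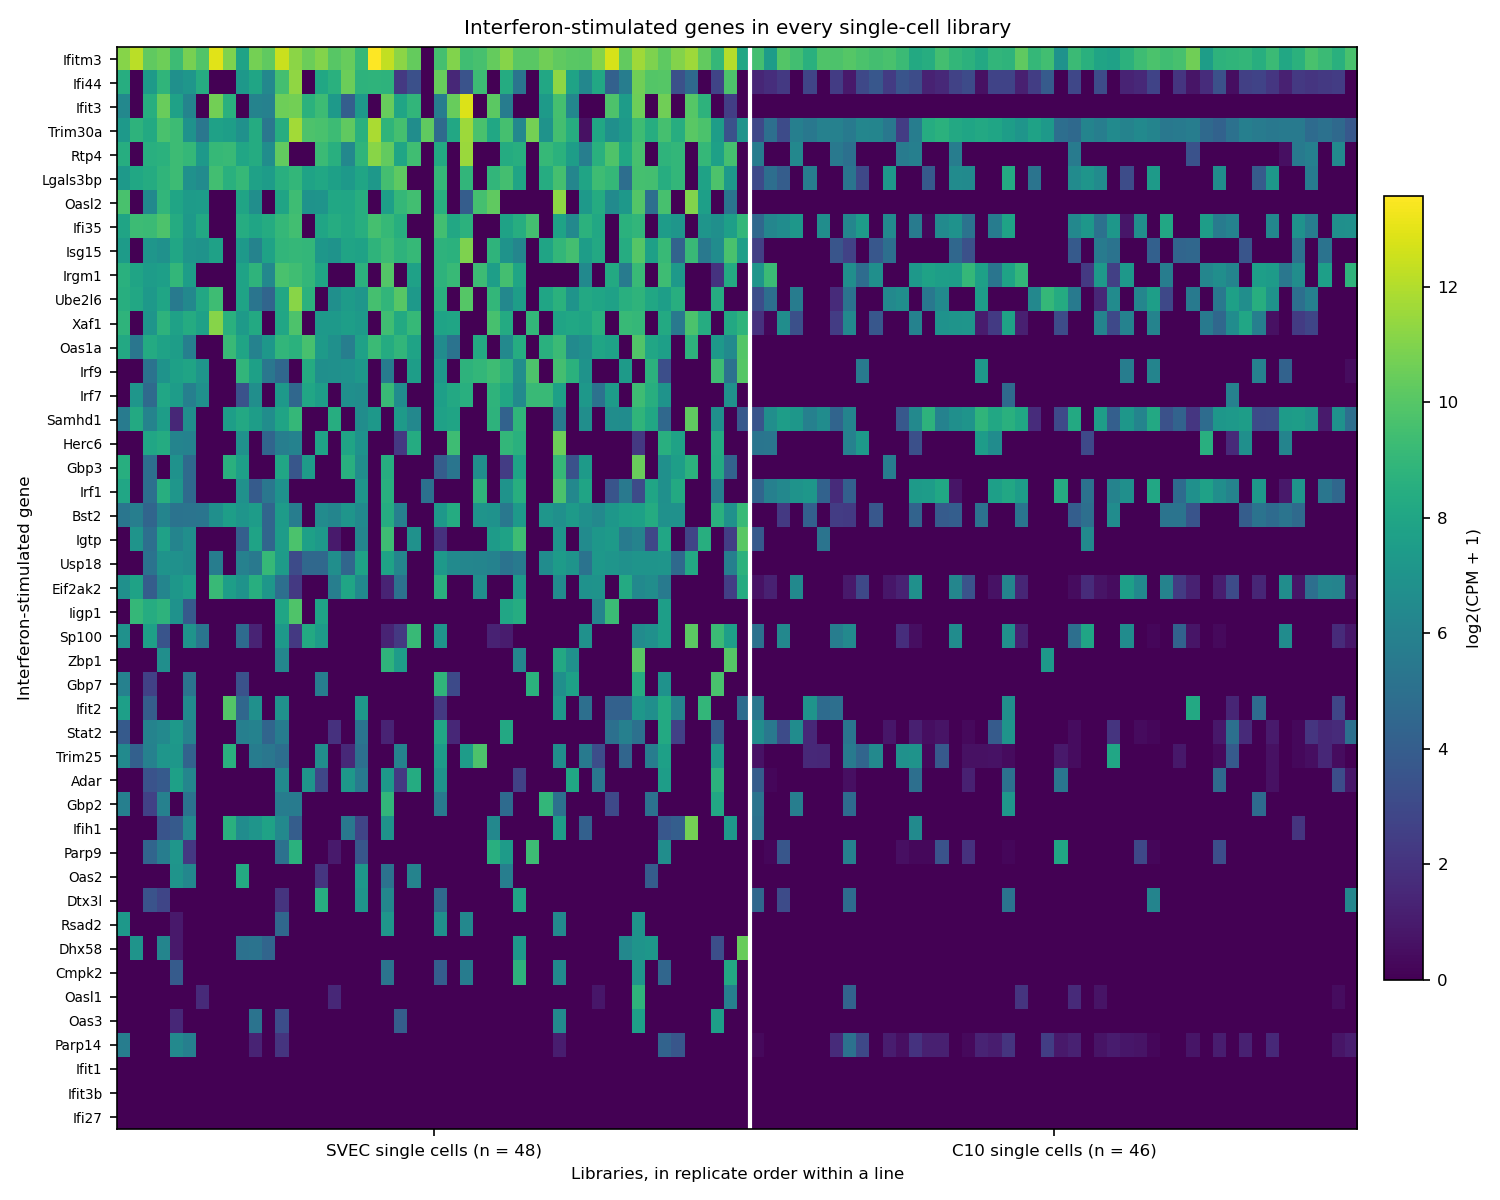
log2(CPM + 1) of the 45 members (rows, ordered by the pooled CPM of the higher line) in each of 48 SVEC and 46 C10 single-cell libraries (columns, in replicate order). Ifit3, Oasl2, Oas1a and Usp18 are dark across all C10 columns, Ifitm3 and Trim30a are read in nearly every column, and the dark SVEC column is replicate 24.

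Promoter sequence was looked at because the members differ between the lines together. RefSeq promoter windows of assembly GRCm38.p6, 250 bases before to 50 after a transcription start, matched 36 of the 45 members by symbol. The ISRE was searched as GAAA, any 2 bases, GAAA, and the GAS as TTC, any 3 bases, GAA, each on both strands. An ISRE match stood in the window of 18 of the 36 members (50%), and in 3.99% of 27025 gene symbols. A GAS match stood in 11 members (30.6%) and in 9.55% of symbols, and 6 members had both. Of the 29 ISRE matches, 20 lay within 150 bases before the start and 5 after it, and the median over all 29 was 59 bases before it. The 11 members without a C10 read had 7 windows, 5 of them with an ISRE, and the other members had 29 windows, 13 with one. A match is a description of letters, not evidence of binding.

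The windows below are those of the 3 ISRE-bearing members with the highest pooled CPM in SVEC, and of the first member by that order without a match. They run from 250 bases before to 30 after the start, 5′ to 3′ on the gene's strand, and capitals mark the ISRE matches. Isg15 was added after its values were seen, because 3 matches overlap there. The Ifitm3 window is chr7:141010715-141010994 (minus strand), that of Ifit3 chr19:34583279-34583558 (plus), that of Trim30a chr7:104465164-104465443 (minus, 1 of 2 windows of this gene), that of Ifi44 chr3:151749881-151750160 (minus), and the 40 bases of Isg15 are chr4:156200869-156200908 (minus).
Ifitm3: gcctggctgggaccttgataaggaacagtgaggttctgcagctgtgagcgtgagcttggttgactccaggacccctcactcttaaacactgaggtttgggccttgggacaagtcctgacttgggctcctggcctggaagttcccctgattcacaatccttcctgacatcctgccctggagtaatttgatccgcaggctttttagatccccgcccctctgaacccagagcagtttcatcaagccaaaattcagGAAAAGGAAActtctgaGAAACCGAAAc
Ifit3: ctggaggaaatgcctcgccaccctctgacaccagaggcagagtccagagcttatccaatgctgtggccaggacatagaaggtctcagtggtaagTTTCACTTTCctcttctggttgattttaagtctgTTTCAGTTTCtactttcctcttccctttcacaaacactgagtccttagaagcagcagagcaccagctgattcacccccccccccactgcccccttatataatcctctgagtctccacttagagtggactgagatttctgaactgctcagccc
Trim30a: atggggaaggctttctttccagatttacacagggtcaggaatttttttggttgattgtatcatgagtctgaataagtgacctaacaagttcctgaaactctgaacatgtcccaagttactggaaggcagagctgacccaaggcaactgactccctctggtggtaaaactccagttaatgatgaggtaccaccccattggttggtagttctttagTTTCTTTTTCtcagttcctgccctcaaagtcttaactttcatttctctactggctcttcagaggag
Ifi44: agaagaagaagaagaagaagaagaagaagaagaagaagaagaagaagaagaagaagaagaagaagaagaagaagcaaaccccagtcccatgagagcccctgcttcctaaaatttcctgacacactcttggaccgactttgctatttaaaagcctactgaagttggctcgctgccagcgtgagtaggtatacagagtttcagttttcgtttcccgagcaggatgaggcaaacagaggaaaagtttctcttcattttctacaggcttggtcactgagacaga
Isg15: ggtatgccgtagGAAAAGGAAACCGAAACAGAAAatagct
In Ifitm3 both matches lie just after the start, in Ifit3 both lie over 100 bases before it, and in Trim30a the match is 36 bases before it. The Ifit3 and Trim30a matches read TTTC first because they lie on the opposite strand. In the Isg15 stretch the matches begin 78, 72 and 66 bases before the start.

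The transcription factors that carry the response differed in how far they stood apart. Irf9, the DNA-binding partner of STAT2, had a median of 109.5 CPM over the SVEC libraries (0 to 1025) and of 0 over the C10 single cells (0 to 150.4). It was read in 32 of 48 SVEC and 7 of 46 C10 libraries, at 178 and 8.72 CPM pooled, or 20.4-fold. Much of the C10 level came from replicate 31, without which the ratio was 32.6. Irf7, which amplifies interferon production, ranged from 0 through 103 to 654 CPM in SVEC. It had reads in 2 C10 libraries, replicates 20 and 38, with a highest value of 61.5 CPM. The pooled ratio of 60.0 became 112 without the first and 118 without the second. Stat2 was read in 21 SVEC libraries (highest 303 CPM) and 26 C10 libraries (highest 130.4 CPM). Its pooled levels were 58.5 and 17.3 CPM, a ratio of 3.39 that was 5.79 without C10 replicate 20. Irf1, a factor driven mainly by interferon gamma, did not reach 2-fold. Its median was 8.98 CPM in SVEC (0 to 845) and 23.9 CPM in C10 (0 to 336), while pooled levels of 127 and 92.3 CPM gave a ratio of 1.37, so median and pooled level went opposite ways.

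The IFIT proteins bind viral RNA and block its translation. Ifit3 was read in 34 SVEC libraries at 0 through 156 to 7268 CPM, and in no C10 single cell. Its pooled 471 CPM in SVEC was at least 15581-fold above the C10 floor, and 1 of the 20 input-series libraries, of 10 cells, held it at 3.37 CPM. Of the 150-base stretches of Ifit3 exons, 18.5% also occur in Ifit3b, so reads there cannot be given to 1 of the pair with certainty. Ifit2 stood in 19 SVEC and 9 C10 libraries at 63.2 and 14.1 CPM pooled. Its ratio was 4.50, and 7.46 without C10 replicate 20. Ifit1 and Ifit3b had no read in any of the 5 groups, and an ISRE match stands in the promoter window of both.

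The OAS family, some members of which make the messenger that switches on the RNA-cutting enzyme RNase L, was nearly silent in C10 single cells. Its 5 members summed to 639 CPM in SVEC and 0.574 CPM in C10 single cells, all of the latter from Oasl1. Oasl2 had 0 through 152 to 2499 CPM over SVEC libraries, with reads in 33 of them. Oas1a had 0 through 193 to 986 CPM, with reads in 39. Both had no read in C10 single cells, so that the pooled levels of 363 and 225 CPM were at least 12013-fold and 7436-fold above the floor. Traces appeared in the input series, where Oasl2 had 5.23 CPM over the 1-cell libraries and Oas1a 2.41 CPM over the 10-cell libraries. Nearly all of each came from 1 library, with 413 of 415 Oasl2 reads in 1-cell replicate 13 and all 166 Oas1a reads in 10-cell replicate 6. Oas1a shares 32.4% of its 150-base stretches with Oas1g. Oas1g itself had 80.6 CPM in SVEC, no read in C10 single cells and 0.464 CPM over the C10 10-cell libraries. Oas2, Oas3 and Oasl1 were read in 9, 7 and 5 SVEC libraries. The Oasl1 level in SVEC came almost wholly from replicate 40 (95.8% of its reads), without which the ratio of 22.8 was 0.988. Without C10 replicate 8 it was 84.5.

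ISG15 is a ubiquitin-like protein, and this group holds the enzymes that attach and remove it. All 4 members were over 2-fold higher in SVEC (Herc6 being 8.41-fold), and together they summed to 833 CPM there and 82.3 CPM in C10. Isg15 itself ran from 0 through 219 to 1939 CPM in 42 SVEC libraries with reads. In C10 it was read in 16 of 46 libraries, with a median of 0 and a highest value of 48.4 CPM. The pooled levels of 315 and 7.38 CPM gave 42.7-fold. Usp18, which removes ISG15 and damps the receptor, was among the clearest on-off members. It had 0 through 66.7 to 547 CPM in SVEC, with reads in 38 libraries, and no read in any C10 library, which put its SVEC level at least 3662-fold above the floor. Ube2l6, the conjugating enzyme, was present in both lines. It ran from 0 through 224 to 2271 CPM in SVEC and 0 through 18.9 to 526.4 CPM in C10, and its pooled ratio was 4.57. Herc6, the mouse ligase for ISG15, had reads in 21 SVEC and 12 C10 libraries, at 143 and 17.0 CPM pooled.

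The interferon-induced GTPases guard against bacteria and parasites inside cells. All 6 measured members were at least 2-fold higher in SVEC. Irgm1, a regulator of the others, was the member of the group with the highest level in C10, at 0 through 46.9 to 611 CPM. In SVEC it had 0 through 180.5 to 992 CPM, and the pooled levels of 305 and 148 CPM differed by the 2.06-fold given above. Igtp ran from 0 through 39.9 to 1089.8 CPM in SVEC, with reads in 32 libraries, and was read in 3 C10 libraries. Its ratio of 52.6 became 176 without C10 replicate 26, which held 70.7% of the C10 reads. Gbp3 showed the same pattern, with reads in 26 SVEC libraries (0 through 10.4 to 1398 CPM) and in 1 C10 library at 52.4 CPM. The ratio of 98.3 rested on that library, replicate 11, without which it was at least 4494. Iigp1, Gbp7 and Gbp2 were read in 13, 13 and 14 SVEC libraries. Of these only Gbp2 had reads in C10 single cells, in 5 libraries. The Gbp2 ratio of 3.72 was 14.4 without C10 replicate 20, and the Gbp7 level, at least 2223-fold above the floor, was at least 1201-fold above it without SVEC replicate 25.

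The 2 membrane factors were read in most SVEC cells. Ifitm3, which blocks the entry of enveloped viruses, was read, like Trim30a, in nearly every library of both lines. It had reads in 47 of 48 SVEC libraries at 0 through 1411 to 12138 CPM and in all 46 C10 libraries at 120.5 through 559.6 to 1566 CPM. The pooled 1778 and 541 CPM gave 3.28-fold, and the C10 input series held 415 to 609.8 CPM. Ifitm3 made up 21.6% of the summed SVEC level and 37.3% of the C10 level. Bst2, which tethers budding virions to the cell surface, was read in 40 SVEC libraries (0 through 109 to 571 CPM). In C10 it was read in 21 libraries, no higher than 96.1 CPM, and the pooled ratio was 11.1.

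Among sensors and RNA-binding enzymes, Eif2ak2, the kinase PKR that halts translation on double-stranded RNA, was read about as often in both lines. It stood in 30 SVEC libraries at 0 through 39.3 to 591 CPM and in 31 C10 libraries at 0 through 0.831 to 204 CPM. Its pooled levels were 99.4 and 24.0 CPM, or 4.15-fold, and with every library thinned to 100000 counts it was found in 54.8% of SVEC and 26.7% of C10 libraries. Ifih1, the RNA sensor MDA5, and Adar, the enzyme that edits adenosine in double-stranded RNA, were read in 19 and 18 SVEC libraries and in 3 and 11 C10 libraries. The Ifih1 ratio of 6.53 was 26.8 without C10 replicate 13. Dhx58, the sensor LGP2, was read in 12 SVEC libraries, and Zbp1, a sensor of left-handed nucleic acid, in 9. Both were almost absent from C10 single cells, with no read of Dhx58 and reads of Zbp1 in 1 cell. Adar shares 10.4% of its 150-base stretches with the overlapping gene Chrnb2.

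The enzymes of nucleotide and lipid metabolism held the only member that was not higher in SVEC. Samhd1, which breaks down deoxynucleotides and so starves viral reverse transcription, ran from 0 through 87.5 to 1199 CPM in SVEC and from 0 through 76.0 to 469 CPM in C10. The pooled 139 and 149.7 CPM gave a ratio of 0.930 (0.738 with TMM factors), whereas a mean weighting libraries equally gave 1.28, so its direction was not fixed. It turned with the C10 group too, since SVEC lay below the 1-cell libraries (187.6 CPM) and above the 3-cell (83.4 CPM) and 10-cell libraries (79.3 CPM). Rsad2, which makes a chain-terminating nucleotide, and its neighbour Cmpk2 were read in 8 and 9 SVEC libraries and in no C10 library.

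TRIM and nuclear body proteins were read in both lines. Trim30a, a mouse regulator of inflammatory signalling, had reads in every single-cell library, at 0.528 through 349.9 to 3641 CPM in SVEC and 4.31 through 53.0 to 409.9 CPM in C10. The pooled ratio was 4.74. Its level differed between the C10 groups, where 95.1 CPM in the single-cell set stood beside 11.5 to 15.7 CPM in the input series. Trim25, the ligase that acts on the sensor RIG-I, was read in 24 SVEC libraries (highest 883 CPM) and 25 C10 libraries (highest 259.7 CPM). Its ratio was 3.29, and 5.54 without C10 replicate 28. Sp100, a constituent of nuclear bodies, stood in 24 SVEC and 19 C10 libraries, with highest values of 1139 and 254 CPM and a ratio of 3.34.

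Among PARP and DTX proteins, which add ADP-ribose and ubiquitin, detection was sparse in SVEC, with reads of Parp9, Parp14 and Dtx3l in 12, 8 and 8 libraries. Parp9 and Dtx3l overlap on opposite strands. The Parp9 ratio of 6.43 was 15.2 without C10 replicate 24. The order of the lines turned with the C10 group used for Parp14. Its pooled level was 5.69 CPM in SVEC and 1.61 CPM in C10 single cells, but 14.7 to 16.2 CPM in the input series.

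The remaining members include Ifi44, which had the largest ratio of the members with reads in both lines. Ifi44, a cytoplasmic antiproliferative protein, had 0 through 157 to 2518 CPM over SVEC libraries and 0 through 3.64 to 13.8 CPM over C10 single cells. It was read in 39 libraries of each line, yet the pooled 532 and 3.83 CPM gave 139-fold. Thinned to 100000 counts, 81% of SVEC and 20% of C10 libraries held it. Rtp4, a Golgi chaperone, ran from 0 through 351 to 2934 CPM in SVEC, with reads in 37 libraries, and reached 88.7 CPM in 13 C10 libraries. Its ratio was 28.2. Xaf1, a proapoptotic protein, had 0 through 248 to 2202 CPM in SVEC and 0 through 3.42 to 260.2 CPM in C10, or 6.20-fold. Ifi35 had 0 through 278 to 876 CPM in SVEC and 0 through 50.1 to 276 CPM in C10, or 4.76-fold. Lgals3bp, a secreted glycoprotein that binds galectins, was read in 41 SVEC libraries at up to 1175 CPM and in 21 C10 single cells at up to 316 CPM. Its ratio of 7.35 to the C10 single cells fell to 1.87 against the C10 1-cell libraries, which held 216 CPM. Ifi27 had no read in any group.

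Levels of different genes are comparable only per length. Divided by the exon length in kilobases of GENCODE M21 (GRCm38), the leading SVEC members were Ifitm3 (2622 CPM per kilobase), Isg15 (417), Ifit3 (269.7), Rtp4 (199.8) and Ifi35 (187). In C10 single cells the order was Ifitm3 (799), Ifi35 (39.2), Ube2l6 (29.0), Irgm1 (25.5) and Irf1 (23.2). Ifitm3 led both lines, and Isg15 and Ifit3, next in SVEC, stood at 9.76 and 0 CPM per kilobase in C10. Over SVEC libraries the SD of these 5 was 0.816 to 1.99 times the mean, so steps between neighbouring ranks below Ifitm3 were smaller than the spread.

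Detection was compared at equal depth because C10 libraries were the deeper ones. Of the 45 members, 24 had reads in at least 50% of SVEC libraries and 13 in at least 50% of C10 libraries, and over all 40202 genes the shares were 7.61% and 14.4%. A SVEC library held 2 to 37 members (median 22.5) and a C10 library 6 to 24 (median 13). Thinned to 100000 counts, which leaves out 6 SVEC and 1 C10 libraries, a SVEC library held 8 to 34 members (median 22, n = 42) and a C10 library 4 to 17 (median 9, n = 45). The gap thus remained with depth made equal, and 30 of the 42 SVEC libraries lay above every C10 library. Samhd1, Irf1, Trim30a and Parp14 were the 4 members found in a larger share of C10 than of SVEC libraries at that depth. For Trim30a the shares hardly differed, at 44 of 45 C10 and 41 of 42 SVEC libraries.

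**Figure D4:**
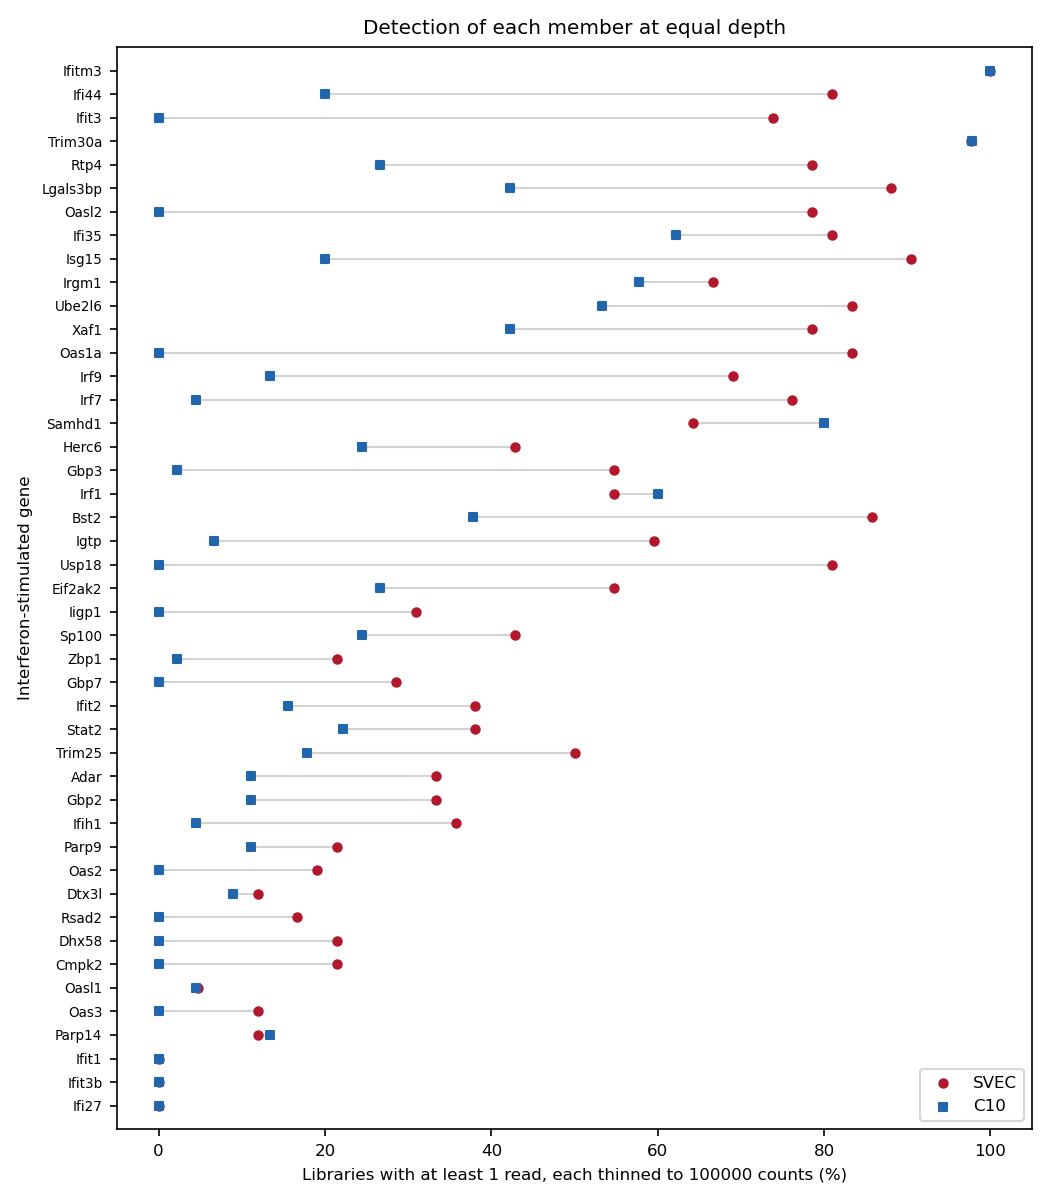
Share of libraries with at least 1 read of each member after every library was thinned to 100000 counts, for SVEC (red circles, n = 42) and C10 (blue squares, n = 45) single cells. Isg15 stands at 90.5% and 20%, Irf7 at 76.2% and 4.44%, and Samhd1 at 64.3% and 80%.

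Within a line, the members varied together only weakly. Over 48 SVEC libraries, 34 members read in at least 25% of them formed 561 pairs with a median Pearson r of log2(CPM + 1) of 0.150, beside 0.124 over all genes read as often. Both medians share library depth. After depth and genes detected were fitted out they were 0.0578 and 0.0042, and 7.31% of member pairs exceeded 0.3, beside 3.09% of all pairs. In C10, 20 members formed 190 pairs with a median r of 0.0296, beside 0.0337 over all genes, and 0.0114 and 0.0039 after the same fit. There 2.11% of member pairs exceeded 0.3 after the fit, beside 3.01% of all pairs. In counts this sparse such medians are no finding, and they are given as a description.

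Some pairs stood higher in SVEC. Lgals3bp and Ube2l6 had r = 0.653 and kept 0.636 after depth was fitted out, over 37 libraries with reads of both. The next pair, Irgm1 and Stat2, had 0.560 and fell to 0.372 after the fit (20 libraries). Among GTPases, Igtp and Iigp1 had 0.543 (0.502 after the fit, 13 libraries with both) and Igtp and Irgm1 0.499 (0.398, 25 libraries). Lgals3bp and Rtp4 had 0.549 (0.457, 36 libraries), and Isg15 and Usp18 0.446 (0.363, 36 libraries). The lowest pair in SVEC was Bst2 and Trim30a at -0.378, and the lowest in C10 was Sp100 and Ube2l6 at -0.393. The highest pair in C10 was Ifi35 and Stat2, at 0.399 before and 0.338 after the fit, with 22 libraries. These pairs were picked after their values were seen and carry no test.

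**Figure D5:**
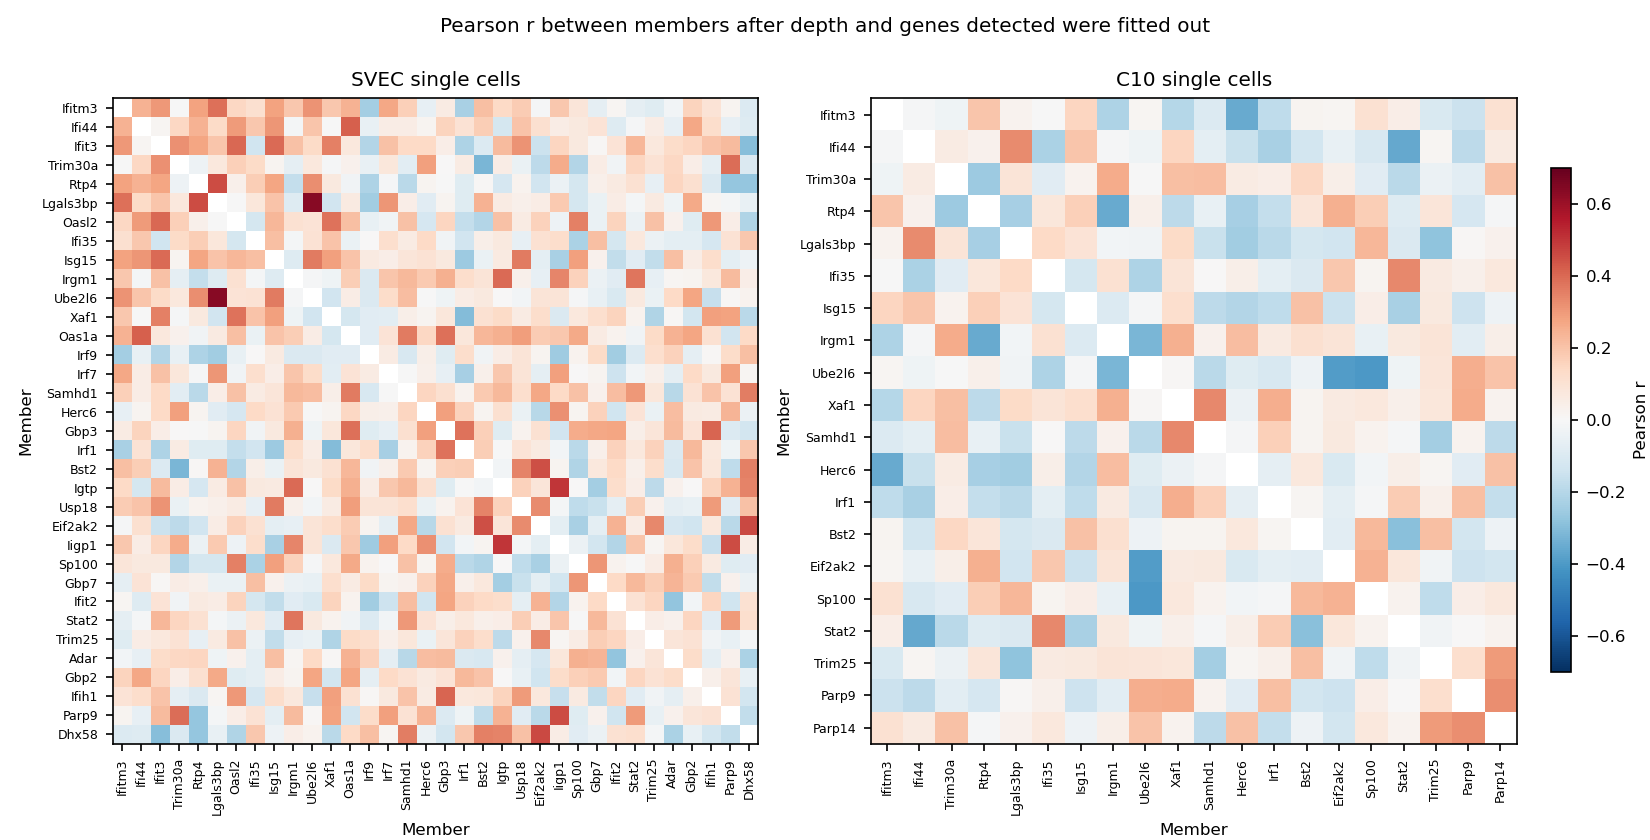
Pearson r between members across libraries, after depth and genes detected were fitted out, for 34 members in 48 SVEC (left) and 20 members in 46 C10 (right) single cells, from blue (negative) through white to red (positive). Most cells of both panels are pale, and the darkest SVEC cell is the pair of Lgals3bp and Ube2l6 at 0.636.

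The genes around the members were read in the same way, by the same filter and 2-fold rule, from lists of pathway components. That rule called 17.9% of all genes higher in SVEC and 19% higher in C10, and the counts below are a description and not a test. Those read in 50% or more of the cells of a line are named, and Ifna4, Ifngr1, Cgas and Slfn5 were added after their values were seen. Of 12 interferon genes, 11 had no read in either line, and Ifna4 was read in a single SVEC library (128 reads, 639.8 CPM). Receptors were present in both lines. Among 5 of 6 that passed the filter, Ifngr1 was over 2-fold higher in SVEC (106 and 32.0 CPM) and Ifngr2 over 2-fold lower (23.5 and 55.5 CPM), while Ifnar1 had 25.0 and 21.4 CPM, Ifnar2 38.0 and 73.0 CPM, and Il10rb 71.9 and 71.6 CPM. None of the 3 kinases reached 2-fold, with ratios of 1.28 for Jak1, 0.996 for Jak2 and 1.48 for Tyk2. The ratio was 0.687 for the transcription factor Stat3 and 1.52 for Irf3. Of 3 inhibitors that passed the filter, Pias1 reached 2-fold (117 and 27.8 CPM) and Ptpn2 did not (159.7 and 95.2 CPM). Of 5 genes of the sensing pathway that passed, 4 were over 2-fold higher in SVEC. One of them, Cgas, the sensor of cytosolic DNA, passed through SVEC only (12 of 48 libraries). It had 12.2 CPM there, no read in C10 single cells and 3.89 CPM over the C10 1-cell libraries. Ddx58, the sensor RIG-I, had 142 and 48.4 CPM, Sting1, the adaptor downstream of Cgas, 109 and 53.4 CPM, and the kinase Tbk1 72.9 and 31.3 CPM.

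A further 40 interferon-induced genes outside the list gave 39 by symbol, of which 28 passed the filter. Of these 20 were at least 2-fold higher in SVEC (17.9% of all genes) and 1, Slfn5, at least 2-fold higher in C10 (19%), though with 2 SVEC and 34 C10 reads in all. The median log2 ratio of the 28 was 2.17. This list and the pathway lists were chosen with earlier results of these data known. Genes such as Psmb8 and Oas1g passed the filter through SVEC alone, so these counts are a description and not a test. Psmb8, a subunit of the immunoproteasome, had 281 CPM in SVEC and no read in C10 single cells, and Psmb9 had 177 and 8.25 CPM. Further members of this list at least 2-fold higher were Apol9a (401 and 32.3 CPM), Apol9b (271.8 and 64.3), Ifi204 (226 and 36.5), Shisa5 (372 and 144), Irgm2 (62.1 and 1.95) and Gbp8 (6.13 and 0.866). Oas1g had the 80.6 CPM given above and no read in C10 single cells. Ifitm2 and Lgals9, read in nearly every cell of both lines, did not reach 2-fold, at 633 and 396 CPM for the first and 617 and 326 CPM for the second, and nor did Tor3a (1.53-fold) and Parp11 (0.924-fold). The 7 leukocyte markers listed were low in both lines. None was read in 50% of libraries, Ptprc had no read, and the summed level of the list ran from 0 through 0 to 276 CPM in SVEC and 0 through 0 to 80.1 CPM in C10. Any part of other cells in the result was not tested beyond these values.

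The C10 groups were then set side by side, since 4 groups of 1 line show how far the members move without a change of line. The 24 members with at least 3 reads in both the single-cell set and the 1-cell libraries differed between these 2 groups in both directions. At least 2-fold higher in the single-cell set were 9. They were Trim25 (27.0-fold), Parp9 (23.3-fold), Sp100 (22.1-fold), Herc6 (18.3-fold), Oasl1 (15.2-fold), Stat2 (11.3-fold), Trim30a (6.47-fold), Isg15 (5.74-fold) and Irf1 (2.78-fold). In the 1-cell libraries 3 were at least 2-fold higher, namely Parp14 (9.91-fold), Lgals3bp (3.93-fold) and Ifit2 (3.04-fold, all from 1 of the 8 libraries). Isg15, too, was read in only 1 of these 8 libraries. The share of all genes that differed as much between these 2 groups was not computed, so the counts cannot be called particular to the members. Of the 42 members with reads, SVEC lay above every C10 group for 40, the exceptions being Samhd1 and Parp14, and at least 2-fold above for 34. No detection filter was applied to these counts, and the share of all genes above every C10 group was not computed. With the 1-cell libraries as the C10 reference, 32 of 36 members were at least 2-fold higher in SVEC (31.1% of all genes), and with the 10-cell libraries 34 of 37 (21.8%). In both cases 1 member, Parp14, was at least 2-fold lower.

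Pools of 10 and of 3 C10 cells were the one comparison with replicate libraries of several cells each (n = 6 and 6). Nothing shows that they came from separate cultures, so the p-values measure the spread between these libraries. The summed level ran from 986 through 1301 to 1643 CPM in 10-cell and from 1023 through 1216 to 1387 CPM in 3-cell libraries, so the groups overlapped. Each 10-cell library held 24 to 27 members and each 3-cell library 16 to 25. With edgeR's quasi-likelihood test, 0 of 13602 genes (0%) and 0 of 28 members tested had an adjusted p under 0.05. At an unadjusted p under 0.05 there were 1592 genes and 3 members, namely Dtx3l, Dhx58 and Igtp. Dtx3l, at 0 in all 6 3-cell libraries and read in 3 of the 10-cell libraries (highest 32.7 CPM), had the smallest adjusted p of the members, 0.210 by edgeR. DESeq2 called 564 genes and 1 member (Dtx3l, adjusted p = 0.0396), and limma called 14 genes and 0 members. In simulated libraries of this design edgeR recovered 23.4% of the genes given a log2 change of 4 and 59.4% of those given 8, so smaller changes were mostly not detectable.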

How the data were processed

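RNA of C10 and SVEC cells was made into full-length cDNA with SMART-Seq v4 Plus and sequenced as single reads of 150 bases, per the labels' protocols. The deposited values were whole-number read counts for 40202 gene symbols in each of 116 libraries. The submitters' processing notes name FastQC, STAR and HTSeq, with no version or role, and the genome build, annotation and strand setting are not given in the sources used here. Entries for reads not assigned to a gene stayed out of totals, and they held 24.5% to 95.9% of a library's reads. Groups came from the labels.

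The members and gene lists were chosen with earlier results of these data known. Libraries of at least 1000 counts were kept. No 2 libraries of a group agreed within sampling noise (lowest chi-square per degree of freedom 3.23). CPM, pooled CPM, detection and thinning to 100000 counts were computed in Python 3.11.15. A line with under 3 counts of a gene was set to 3. Genes named in full were the 25 members of highest pooled CPM among those read in 50% or more of the cells of SVEC or C10, with others named by detection within their role. Correlations used log2(CPM + 1). Pools of 10 and 3 cells were compared with edgeR 4.0.16 (quasi-likelihood, TMM, Benjamini-Hochberg over all genes read in 50% or more of a group's libraries) in R 4.3.3, with limma 3.58.1 and DESeq2 1.42.0 as alternatives, tested on simulated data. Gene overlaps, lengths and shared 150-base stretches came from GENCODE M21. Median depth was 434945 counts in SVEC and 1881704 in C10 single cells, so low genes are detected less surely in SVEC. Alternatives were other scalings, depths, folds, filters and tests. Mx1 and Mx2 were left out.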

Additional observations from a re-analysis of the deposited data

Results flagged for a closer look

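Single libraries that stood apart from the rest of their group were looked for by Dixon's criterion at 95% in the 3 groups of the C10 input series, over 15 members and the summary measures. Of 54 groups of values tested, 12 held such a library. The rate of about 1 in 20, or 2.7, applies to normally distributed values. Skewed CPM values with zeros are not of that kind, so 12 cannot be read as an excess over chance. The values are given without explanation.

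Among the 8 C10 1-cell libraries, replicate 1 held reads of 3 members, beside 13 to 22 in the others, and it had 430798 counts and 538 genes with reads. In the same group Trim30a was highest in replicate 14, at 49.8 CPM beside 5.65 to 23.0 CPM. Irgm1 was highest in replicate 10, at 453 CPM beside 0 to 171 CPM, and Xaf1 in replicate 9, at 194 CPM beside 0 to 38.4 CPM. Eif2ak2 reached 86.0 CPM in replicate 2, beside 0 to 27.4 CPM. At low levels, Stat2 had 6.69 CPM in replicate 10 beside 0 to 2.04 CPM, Trim25 had 2.51 CPM in replicate 6 beside 0 to 0.669 CPM, and Parp9 had 0.957 CPM in replicate 9 beside 0 to 0.286 CPM.

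Among the 6 C10 3-cell libraries, Ifi35 had 154 CPM in replicate 9 beside 0.871 to 50.6 CPM, and Samhd1 had 191 CPM in replicate 2 beside 46.9 to 82.6 CPM. Parp9 had 26.0 CPM in replicate 6 beside 0 to 0.290 CPM, and Parp14 had 38.9 CPM in replicate 2 beside 1.02 to 13.2 CPM.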

How the results depend on the processing

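The summed level stayed higher in SVEC under every alternative run, from 4.50-fold with TMM factors to 6.53-fold without the 2 members of the largest sums. Members at least 2-fold higher numbered 30 to 40 over the alternatives at that fold. TMM factors turned the split of all genes from 17.9% higher and 19% lower into 12.5% and 26.8%. Lower in SVEC were 0 members, but 1 (Parp14) with the C10 1-cell libraries as reference and 1 with the 10-cell libraries, both references chosen after seeing the data. Members read in 50% or more of C10 cells fell from 13 to 7 when thinned and to 7 when at least 10 reads were asked for, so depth limits detection. The median correlation in SVEC, 0.150, was 0.130 by Spearman, 0.0578 on residuals after depth, 0.122 in libraries of at least 100000 counts, 0.121 thinned and 0.116 with a pseudocount of 10. In C10, 0.0296 became 0.0271, 0.0114, 0.0329, -0.00020 (a change of sign) and 0.0152 in the same order. Between 10-cell and 3-cell pools DESeq2 called 1 member and edgeR 0. Where a result changed, the cause was not tested. With replicate number as a block, edgeR called 0 members and 0 genes, with 1284 genes at an unadjusted p under 0.05. Same-numbered pools had r from -0.0152 to 0.0506 and 2 of 6 correlated best with their own number. No pairing by number was seen in these values, which are too few to exclude one. No paired analysis was possible between the lines because that comparison has no test.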
